A study of Mus musculus with 3 samples.

Results

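At E7.5 a set of 120 mouse genes gave a low signal in the epiblast and a higher signal, of like size, in both endoderm and mesoderm. The set was drawn from 18193 genes measured on 3 microarrays by 1 rule. A gene had to be at least 2-fold brighter in endoderm than in epiblast, at least 2-fold brighter in mesoderm than in epiblast, less than 2-fold apart between endoderm and mesoderm, and above the floor in both. The floor was the median of all values of the table, an intensity of 80.6 (6.33 on the log2 scale). The genes were chosen by the intensities of the 3 layers themselves, so their differences are given as a description and no test was made of them.

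The embryos were of the ICR strain at embryonic day 7.5, with no allele or treatment named. The embryonic region was freed of Reichert's membrane, loosened with trypsin and pancreatin and parted by hand into its 3 layers, with neuroectoderm and primitive streak both counted as epiblast. RNA of each layer went onto 1 Affymetrix mouse expression array, which reads each gene through short probes grouped in probe sets. There was 1 array per layer (3 in all), how many embryos went into each RNA was not found in the labels or methods, and no value below has a replicate check.

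During gastrulation epiblast cells pass through the primitive streak, lose their epithelial contacts and emerge as mesoderm or as definitive endoderm, while the older visceral endoderm still covers part of the embryo. Nodal, BMP and WNT signals set off this movement, and GATA, SOX and LIM homeobox transcription factors act downstream of them. Endoderm dissected at this stage therefore joins cells of separate origin.

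Of the 12785 genes above the floor on at least 1 array, 1596 (12.5%) were at least 2-fold brighter in endoderm than in epiblast and 429 (3.36%) were at least 2-fold brighter in mesoderm. The whole rule was met by 120 (0.939%). Being at least 2-fold brighter in both layers was met by 230 genes. Among these, 95 were 2-fold or more apart between endoderm and mesoderm, 75 of them brighter in endoderm and 20 in mesoderm. The other 135 were less than 2-fold apart, and 15 of those were lost because a layer did not pass the floor. The same rule with the layers exchanged gave 182 genes low in endoderm alone (1.42%) and 124 low in mesoderm alone (0.97%). With the sign turned it gave 112 genes high in epiblast alone (0.876%), 136 high in mesoderm alone (1.06%) and 973 high in endoderm alone (7.61%). In these high classes only the 1 bright layer had to pass the floor, while in the low classes both bright layers had to. The endoderm-high class was the largest of the 6, and the epiblast-low and epiblast-high classes were of like size. Sizes of low and high classes thus rest on unlike floor demands.

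**Figure D1:**
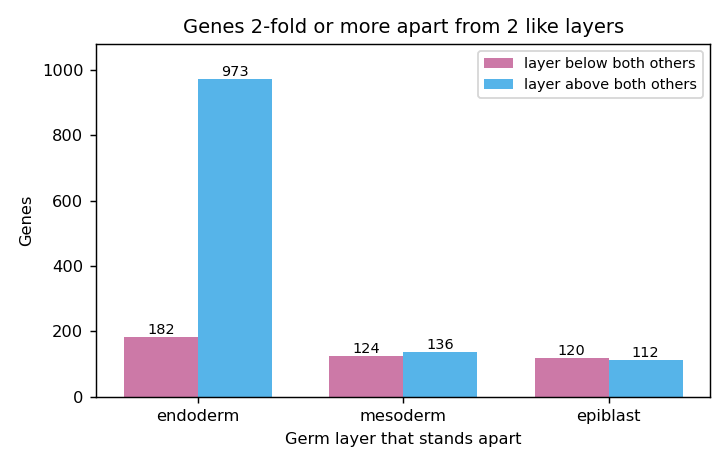
Number of genes (y axis) for which 1 germ layer (x axis) lay at least 2-fold below or above both other layers, with those layers less than 2-fold apart. Endoderm-high genes number 973 and epiblast-low genes number 120, from 1 array per layer.

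Each layer had the highest sum of its own markers. The 10 endoderm markers summed to 67600 intensity units in endoderm, 730 in mesoderm and 2207 in epiblast, of which Cldn6 alone gave 1510. The 10 mesoderm markers gave sums of 2380, 15814 and 2549 in the same order. The 8 epiblast markers summed to 2658, 3264 and 16764, but among them Fgf5 read 476 in endoderm and 360 in epiblast. In mesoderm, Apob, Afp, Cubn, Foxa2, Amn, Spink1 and Cldn6 were below the floor, and in endoderm Hand2, Snai2 and Tcf21 were. The other 7 of the 10 mesoderm markers were above the floor in endoderm, with Pdgfra (982) and Twist1 (413) the brightest. In mesoderm 3 of the 10 endoderm markers were above it, Sox17 at 116, Ttr at 118 and Rbp4 at 143. No marker of these 3 layers was among the 120 genes. The rule itself leaves out genes brightest in epiblast or 2-fold or more apart between endoderm and mesoderm, so this says nothing on purity. Of 7 parietal endoderm markers, endoderm had 5 above the floor, mesoderm 6 and epiblast 3, with sums of 9905, 4209 and 2148, and Pth1r was itself 1 of the 120 genes. Trophoblast markers summed to 4552 in endoderm, where Rhox5 gave 3726, against 935 in mesoderm and 1011 in epiblast. Of 5 blood markers 1 (Gata1) was above the floor on each array and of 6 immune markers 0 were. The 4 node and notochord markers measured summed to 1768, 302 and 391. Decidua markers summed to 518, 1047 and 569, and Hand2, also a mesoderm gene, gave 577 of the mesoderm sum. The markers of a list did not move together. Of the parietal endoderm sum in endoderm, Col4a1 gave 4784 and Lamb1 2061. Thbd and Stra6 were above the floor in mesoderm alone, and Srgn in endoderm alone. Of the trophoblast markers, Krt7 was above the floor in endoderm alone, Ascl2, Tfap2c and Plet1 were brightest in epiblast, and Elf5 was below the floor on all 3 arrays. Whether parietal endoderm or trophoblast cells added to the signal of the 120 genes was not tested.

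Over the 120 genes the endoderm intensity ran from 96.5 to 6756 with a median of 639, the mesoderm intensity from 83.2 to 6386 with a median of 634, and the epiblast intensity from 21.5 to 2404 with a median of 195. The median log2 difference was 1.80 for endoderm over epiblast and 1.55 for mesoderm over epiblast. Across all 12785 genes above the floor these medians were 0.05 and -0.02. In 30 genes the epiblast signal itself lay below the floor, so that the fold over epiblast is a lower bound there, taken against the floor and written below as "at least". The excess of a gene was the log2 difference between the dimmer of endoderm and mesoderm and the epiblast, with epiblast raised to the floor. It ran from 0.05 to 3.45 with a median of 1.29. It was 8-fold or more in 3 genes, 4-fold or more in 21 and from 2-fold to 4-fold in 81, and 18 genes did not reach 2-fold once epiblast was raised to the floor. In bulk tissue, fewer expressing cells and less RNA per cell cannot be told apart.

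**Figure D2:**
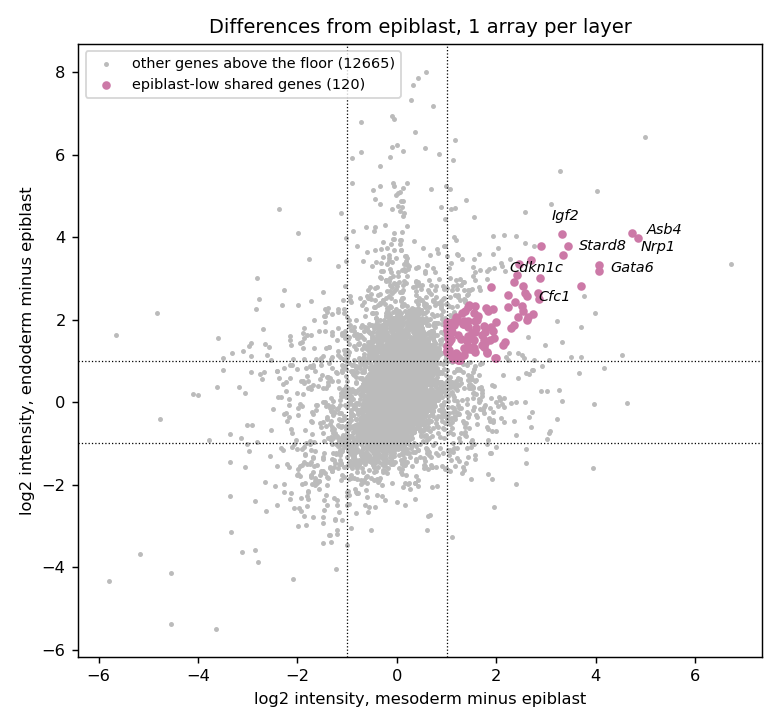
Each point is a gene, with the log2 difference between mesoderm and epiblast on the x axis and that between endoderm and epiblast on the y axis, epiblast values not raised to the floor. The 120 epiblast-low genes fill a diagonal band above the 2-fold limits (dotted lines), with Nrp1, Asb4, Igf2, Stard8 and Gata6 farthest out.

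The role groups used from here on were assigned to the 120 genes alone. No share over all genes stands beside their counts, which only order the description. Counts of the brighter layer within a group take in any gap, however small. In the whole set 69 genes were brighter in endoderm and 51 in mesoderm. Transcription and chromatin proteins made up 25 of the 120 genes, and 7 of the 25 were below the floor in epiblast. Gata6, a zinc finger factor that primitive endoderm and heart mesoderm need, read 645 in endoderm, 1079 in mesoderm and 63.9 in epiblast. It was at least 7.99-fold above epiblast in endoderm and at least 13.4-fold in mesoderm. Gata2, a factor of early blood and extraembryonic tissue, read 468, 591 and 172 in the same order. Zfpm1, the FOG cofactor that binds GATA factors, read 450, 695 and 112. All 3 were brighter in mesoderm than in endoderm, by 1.67-fold, 1.26-fold and 1.54-fold.

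The remaining GATA genes took other patterns. Gata4 read 562, 274 and 40.4 in endoderm, mesoderm and epiblast. It missed the set because the first 2 were 2.05-fold apart. Gata3 read 349, 168 and 214, and Gata5 read 85.9, 146 and 91.4. Gata1 read 193, 153 and 153. So 2 of 6 GATA genes met the rule.

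Sox7, a SoxF factor of endoderm and vessels, read 351 in endoderm, 322 in mesoderm and 43.7 in epiblast, at least 4.35-fold above epiblast in endoderm and at least 4.0-fold in mesoderm. Its relative Sox17 read 4170, 116 and 51.3, an endoderm signal with little in mesoderm, and Sox18 read 130, 146 and 157. Sox7 was the 1 SoxF gene of 3 whose signal was shared.

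Lhx1, a LIM homeobox factor of the head organiser, read 1587 in endoderm, 1078 in mesoderm and 210 in epiblast, which was 7.57-fold and 5.14-fold above epiblast. Its antisense neighbour Lhx1os read 271, 233 and 22.8, at least 3.37-fold above epiblast in endoderm and at least 2.89-fold in mesoderm. The strand that each probe set reads was not analysed here, so the signals of this pair may not be separate. Isl1, a LIM homeobox factor of heart progenitors, read 603, 1132 and 286, and was 1.88-fold brighter in mesoderm. Lhx2 and Isl2 were above the floor and outside the set, and Lhx5 stayed below the floor on all 3 arrays.

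Among homeobox genes of other kinds, Irx1 read 564 in endoderm, 793 in mesoderm and 155 in epiblast. Irx3, of the same Iroquois family, ran the other way with 1126, 1937 and 3396, and Irx5 read 862, 2235 and 2047. The BMP-responsive factors Msx1 (1731, 1044 and 505) and Msx2 (702, 787 and 339) were both in the set. Msx1 was 1.66-fold brighter in endoderm, and Msx2 differed 1.12-fold between endoderm and mesoderm.

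Myc, the growth regulator, read 747 in endoderm, 704 in mesoderm and 208 in epiblast, 3.58-fold and 3.38-fold above epiblast. Mycn read 889, 2709 and 2251 and Mycl 285, 348 and 525, so neither was lowest in epiblast. Epas1, the HIF-2alpha subunit that responds to low oxygen, read 441, 458 and 115, and its relative Hif1a read 2806, 2762 and 2623, nearly level across the layers. Prdm6, a PR domain factor known from smooth muscle, read 718, 691 and 115 and was 1.04-fold apart between endoderm and mesoderm. Of the macroH2A histones, Macroh2a1 read 1785, 2107 and 881 and Macroh2a2 read 544, 1010 and 493.

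Further members of this group were Pwwp3b at 2711, 1453 and 388, Greb1l at 3650, 3861 and 1132, and Klf10 at 852, 560 and 261. The retinoic acid receptor Rarb read 129, 152 and 45.2, at least 1.60-fold above epiblast in endoderm and at least 1.89-fold in mesoderm. Rarg, of the same family, read 245, 515 and 763 and was brightest in epiblast.

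**Figure D3:**
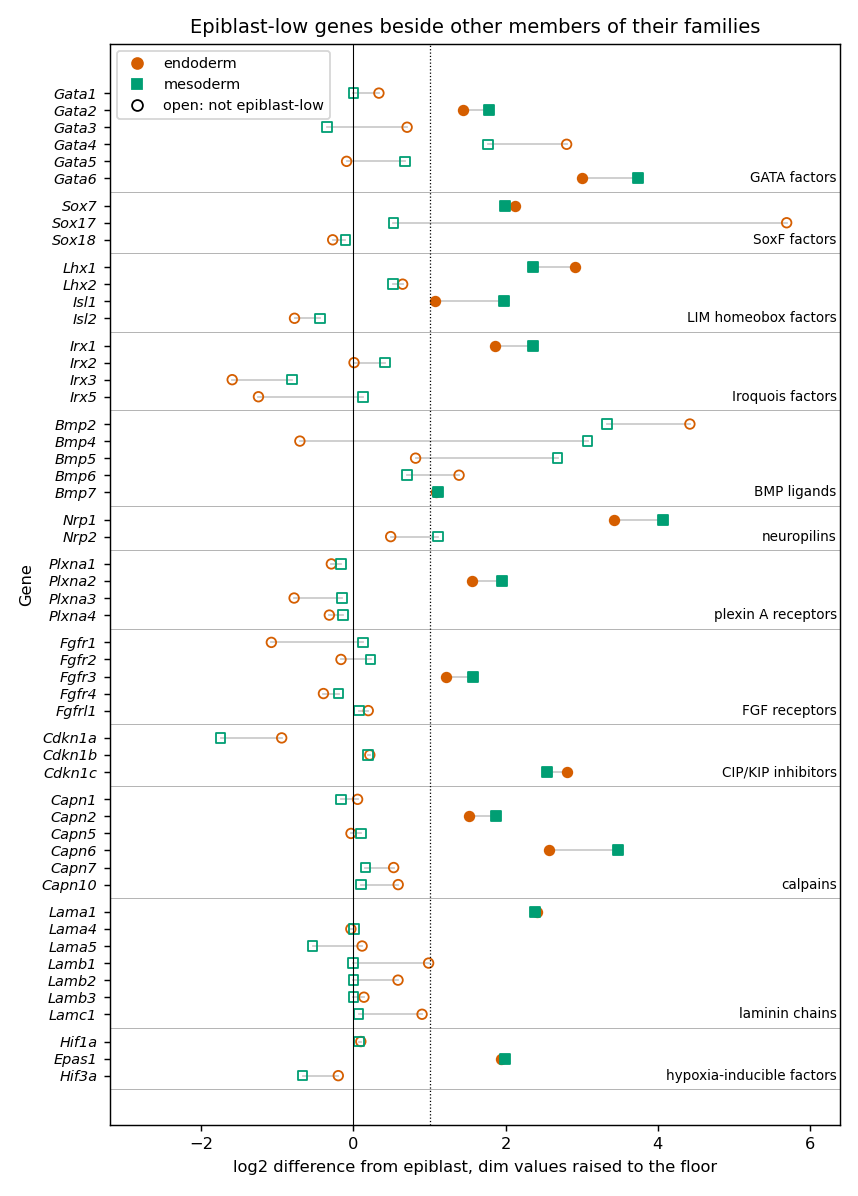
Members of 12 gene families (y axis) with the log2 difference of endoderm (circles) and mesoderm (squares) from epiblast on the x axis, values below the floor raised to it. Each gene is drawn from the 1 probe set that stands for it. Filled points met the rule and open points did not. In most families 1 gene stands past the 2-fold limit (dotted line) in both layers while its relatives do not. Sox7, Irx1, Nrp1, Plxna2, Fgfr3, Cdkn1c and Lama1 are examples. Another probe set of Fgfrl1, which is drawn open, met the rule. The families were chosen after values were seen and each holds at least 1 epiblast-low gene, so a gene past the limit in each follows from that choice.

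Secreted ligands and their regulators gave 7 genes. Igf2, the imprinted fetal growth factor, read 5712 in endoderm, 3421 in mesoderm and 340 in epiblast. It was 16.8-fold and 10.1-fold above epiblast and 1.67-fold brighter in endoderm than in mesoderm. Igfbp4, which binds IGF ligands, read 3066, 2643 and 876. Igf2r, the receptor that clears IGF2, read 1872, 1031 and 693, and Igf1r, the signalling receptor, read 317, 725 and 795, so neither receptor shared the pattern. Of 7 IGF binding proteins above the floor, Igfbp4 alone met the rule, and Igfbp2 and Igfbp3 were brightest in epiblast.

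Vegfa, the ligand that guides vessel-forming mesoderm, read 554 in endoderm, 380 in mesoderm and 150 in epiblast. Its receptor Kdr read 142, 2300 and 147, a signal mostly in mesoderm. Hbegf, an EGF receptor ligand, read 305, 234 and 76.2, at least 3.78-fold above epiblast in endoderm and at least 2.91-fold in mesoderm. Wls, the carrier that WNT proteins need to leave the cell, read 1365, 1587 and 558.

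Genes of the TGF-beta superfamily ran through several groups. Cfc1, an EGF-CFC coreceptor of Nodal, read 1653 in endoderm, 1711 in mesoderm and 277 in epiblast, which was 5.97-fold and 6.18-fold above epiblast. Tdgf1, the other coreceptor of that family, read 411, 865 and 559. Smad7, an inhibitor of receptor signalling, read 618, 707 and 243, while Smad6 read 617, 725 and 487. The 2 inhibitory Smads were thus alike in order, and Smad7 alone passed 2-fold.

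Bmp7 read 316 in endoderm, 322 in mesoderm and 149 in epiblast. Bmp2 was low in epiblast as well, at 1727, 810 and 49.7, but 2.13-fold apart between endoderm and mesoderm. Bmp4 was a mesoderm signal at 113, 1552 and 184. The type II receptor Bmpr2 read 488, 445 and 213. Tgfb2 read 147, 239 and 53.3, at least 1.83-fold above epiblast in endoderm and at least 2.97-fold in mesoderm. Tgfbi, a matrix protein named for its response to TGF-beta, read 139, 211 and 31.7, at least 1.72-fold above epiblast in endoderm and at least 2.62-fold in mesoderm.

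Receptors and membrane signalling proteins gave 23 genes, of which 14 were brighter in mesoderm and 9 in endoderm. Nrp1, a coreceptor for class 3 semaphorins and VEGF, read 864 in endoderm, 1346 in mesoderm and 50.8 in epiblast, at least 10.7-fold above epiblast in endoderm and at least 16.7-fold in mesoderm. Plxna2, a plexin that pairs with neuropilins, read 450, 593 and 153. Sema6d, a transmembrane semaphorin that binds plexin A receptors, read 1001, 1249 and 215. These 3 guidance genes were all brighter in mesoderm than in endoderm, by 1.56-fold, 1.32-fold and 1.25-fold. Their relatives did not share the pattern, since Nrp2 read 396, 609 and 282, and Plxna1, Plxna3, Plxna4, Sema6a, Sema6b and Sema6c were all brightest in epiblast.

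Efnb1, a B-type ephrin, read 1678 in endoderm, 1001 in mesoderm and 336 in epiblast. Efnb2 read 504, 1015 and 946. Efnb1 and Stard8 are neighbouring genes in the RefSeq gene order, as are Ppic and Prdm6. Besides Lhx1 and Lhx1os these were the only neighbouring pairs among the 119 members that could be placed.

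Pth1r, the receptor of parathyroid hormone and its related peptide, read 1548 in endoderm, 838 in mesoderm and 112 in epiblast, 13.8-fold and 7.48-fold above epiblast. It was 1.85-fold brighter in endoderm. Fgfr3 read 534, 685 and 230, in a family where Fgfr1 read 690, 1587 and 1457 and Fgfr2 read 317, 415 and 355. This contrast depends on the probe set. A dimmer probe set of Fgfr3 read 72.7, 92.6 and 87.9. For Fgfrl1 the probe set that stood for it read 736, 678 and 643, and another met the rule at 302, 213 and 95.9. Lifr, the receptor chain of leukaemia inhibitory factor, read 1366, 1450 and 440, and its partner Il6st read 358, 548 and 218. Il6st was above epiblast in both layers but did not reach 2-fold in endoderm.

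Matrix, collagen handling and protease genes gave 14. Fn1, the fibronectin on which mesoderm cells migrate, read 3873 in endoderm, 5886 in mesoderm and 1667 in epiblast. Lama1, the alpha chain of the first laminin of the embryo, read 540, 527 and 101 and was 5.35-fold and 5.22-fold above epiblast. The chains that pair with it did not follow, with Lamb1 at 2061, 1036 and 1039 and Lamc1 at 854, 479 and 457. Lama4 read 341, 351 and 349 and Lama5 read 394, 251 and 364.

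P3h2, a prolyl 3-hydroxylase of basement membrane collagen, read 678 in endoderm, 868 in mesoderm and 119 in epiblast. Serpinh1, the collagen chaperone, read 3632, 2789 and 1183. Pkdcc, a secreted kinase of the matrix, read 1103, 1256 and 220. Ppic, a cyclophilin of the secretory pathway, read 2200, 3431 and 971. Among the proteases, Adam19 read 679, 1272 and 325 and Adam10 read 1306, 853 and 420, each close to the 2-fold limit in its dimmer layer.

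Cytoskeletal proteins and their regulators gave 22 genes, 17 of them brighter in endoderm. Stard8, a protein with a lipid-binding domain, had the largest excess of all 120 genes, with 1954 in endoderm, 1561 in mesoderm and 142 in epiblast, 13.7-fold and 11-fold above epiblast. Its relative Dlc1 read 213, 879 and 358, and Stard13 stayed below the floor. Epb41l3 read 3951, 2990 and 1012, and Cnn2, an actin-binding calponin, read 1685, 1505 and 526. Cnn3, the calponin with a like signal in every layer, read 5139, 6490 and 5816.

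S100a10, the partner of annexin A2, read 3503 in endoderm, 2271 in mesoderm and 778 in epiblast. Phldb2, which ties microtubules to the cell base, read 1410, 1758 and 539. Csrp1 and Csrp2, a pair of LIM-only proteins of the actin skeleton, read 633, 353 and 175, and 2108, 2194 and 989. Dsp, the desmosome plaque protein, read 2523, 1333 and 662 and sat 2.01-fold above epiblast in mesoderm.

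Among kinases, phosphatases and cell cycle regulators there were 8 genes. Cdkn1c, the imprinted p57 inhibitor of the cell cycle, read 3486 in endoderm, 2912 in mesoderm and 498 in epiblast, 7.0-fold and 5.84-fold above epiblast. Cdkn1b read 1082, 1066 and 932, and Cdkn1a was brightest in epiblast at 307, 176 and 590, so Cdkn1c alone of the 3 CIP/KIP inhibitors met the rule. Phlda1 read 1604, 950 and 146, and Sh3bp5 read 1045, 563 and 103. Dusp9, a MAP kinase phosphatase, read 1761, 2517 and 509, while Dusp6 read 1636, 843 and 893. Dusp9 was 1.43-fold brighter in mesoderm and Dusp6 stood out in endoderm.

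Among genes of protein breakdown, Asb4, the imprinted substrate receptor of a ubiquitin ligase, read 632 in endoderm, 1152 in mesoderm and 39.8 in epiblast, at least 7.84-fold above epiblast in endoderm and at least 14.3-fold in mesoderm. Capn6, a calpain without protease activity, read 478, 894 and 53, at least 5.93-fold above epiblast in endoderm and at least 11.1-fold in mesoderm. Capn2 read 955, 1221 and 334. Capn1, Capn5, Capn7 and Capn10 were above the floor and outside the set. Of the 6 genes of this group 4 were brighter in mesoderm and 2, Kctd6 (934 and 796) and Sppl2a (671 and 626), in endoderm.

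Of the 11 genes of metabolism, glycosylation and trafficking, 9 were brighter in endoderm. Polg, the polymerase of mitochondrial DNA, read 1827 in endoderm, 1414 in mesoderm and 302 in epiblast. Hsd11b2, which inactivates glucocorticoids, read 838, 1242 and 199 and was 1.48-fold brighter in mesoderm. Laptm4b, a lysosomal membrane protein, read 6756, 6386 and 2404, with a strong signal in epiblast too. Abca1, the cholesterol exporter, read 382, 391 and 134, and Man1a, a Golgi mannosidase, read 417, 297 and 85.7.

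**Figure D4:**
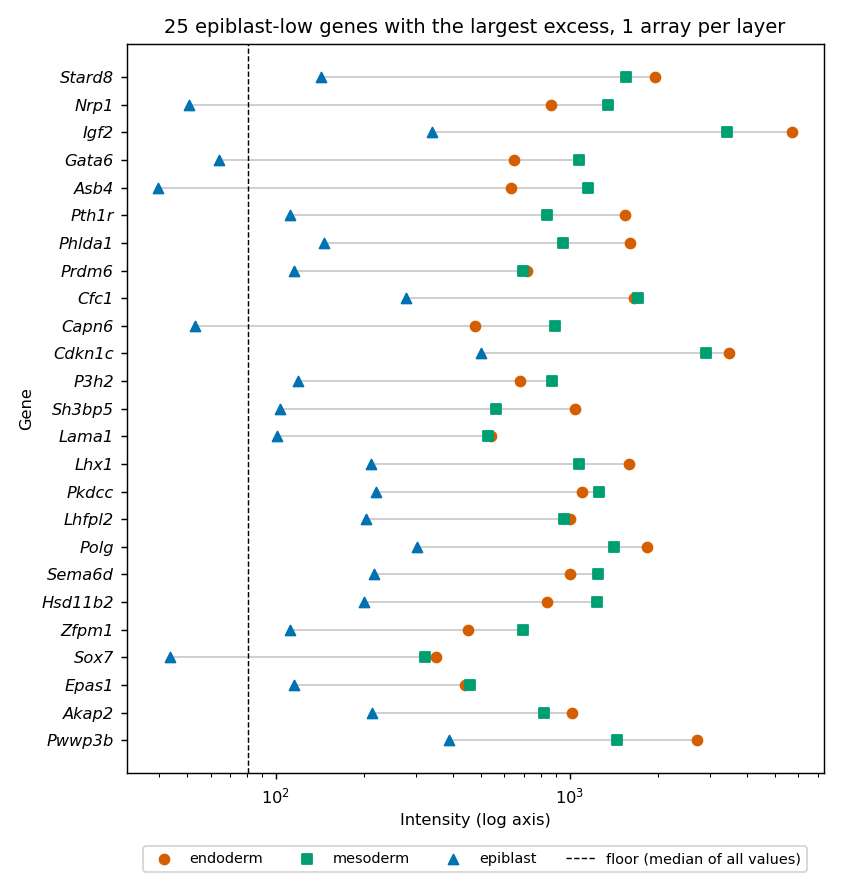
Intensity on a log axis (x) of the 25 named epiblast-low genes with the largest excess (y axis, largest at the top), 1 point per layer, with the floor as a dashed line. The epiblast point lies left of both other layers in all 25, and it is below the floor for Nrp1, Gata6, Asb4, Capn6 and Sox7.

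Between endoderm and mesoderm the 120 genes were close by construction, and the remaining gap is set here beside the spread between probe sets. Endoderm was the brighter layer in 69 genes and mesoderm in 51, with a median log2 difference of 0.13, against 0.07 over all genes above the floor. The gap was under 1.2-fold in 46 genes. Probe sets of 1 gene share the RNA and are no replicates, and their differences between endoderm and mesoderm had a pooled SD of 0.39 on the log2 scale over 5536 genes. The gap lay under that SD in 60 of the 120 genes and over it in 60, of which 42 were brighter in endoderm and 18 in mesoderm. Over 65 members that SD was 0.27, and the gap was over it in 74 of the 120 genes.

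The 2-fold limit cut through a dense range. In 60 of the 120 genes the dimmer layer lay within 0.40 of it on the log2 scale. That is the pooled SD between probe sets of a gene for endoderm over epiblast across all genes, and it was used for both layers. For mesoderm over epiblast the SD was 0.27, and mesoderm was the dimmer layer in 69 genes, so 60 is an upper count. Over the 65 members with another probe set above the floor the endoderm SD was 0.74, and 83 of the 120 genes lay within it. The mesoderm SD over these members was 0.69. Just inside were Rab32, Foxn2, Dsp, Amph and Csrp1, and just outside were Dnajc12 (788, 623 and 312), Jun (370, 388 and 185), Map4, Arsb and Mapkapk2. Foxn2 read 855, 511 and 255, a fold of 2.01 in mesoderm, and Jun, an immediate early factor, fell just short of 2-fold in endoderm, where its fold rounded to 2.0.

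Probe sets that the rule did not use gave a second reading of 75 of the 120 genes. The other 45 had 1 probe set. There were 140 further probe sets, of which 102, from 65 genes, were above the floor on an array. Of these 102, 91 were brighter than epiblast in both layers, 55 were at least 2-fold brighter in both, and 50, from 33 genes, met the whole rule. A probe set could pass the floor through endoderm or mesoderm alone, so this filter itself favours readings above epiblast. Over all 34945 probe sets with 1 symbol, those that stood for the 120 genes included, 199 met the rule. The median log2 difference of the 102 was 1.36 for endoderm and 1.36 for mesoderm, against 1.80 and 1.55 for the probe sets that stood for the 120 genes. These probe sets read the same 3 RNA samples, so their readings are not independent of the choice.

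For Asb4 the second probe set read 577 in endoderm, 983 in mesoderm and 47.1 in epiblast. For Nrp1, further probe sets read 655, 1093 and 50.4, and 616, 1064 and 29.7, and a dim one read 56.9, 102 and 39.6. For Lhx1 the second probe set read 454, 292 and 89.8, and for Gata6 it read 234, 377 and 81.4. Bmp7 was farther from epiblast on its 2 dimmer probe sets than on the one that stood for it. Gata2 and Msx1 were not backed to the same degree, with 294, 303 and 290 for Gata2 and 514, 417 and 378 for Msx1. The second probe set of Igf2 was dim and read 143, 111 and 51.5.

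In 5 genes another probe set above the floor was dimmer than epiblast in both layers. It read 133, 150 and 191 for Adam10, 282, 303 and 327 for Fbln1, 60.6, 86.6 and 99.0 for Lifr, 130, 126 and 140 for Pag1 and 195, 178 and 202 for Vegfa. None of these was 2-fold below epiblast in a layer. Averaging all probe sets of a gene took 19 of 62 named genes under the 2-fold limit, Sema6d, Epas1, Lifr, Fgfr3, Gata2 and Fn1 among them, and quantile normalization took 13, Isl1, Msx2 and Bmp7 among them. Where probe sets of a gene disagree, the array does not tell which transcript form each one reads.

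**Figure D5:**
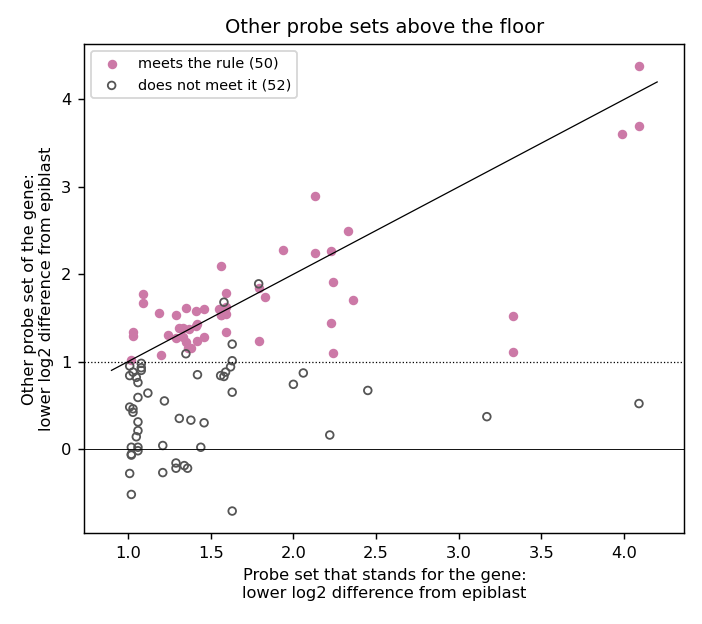
Each point is another probe set of an epiblast-low gene, with the lower of the endoderm and mesoderm log2 differences from epiblast on the y axis and the same quantity for the probe set that stands for the gene on the x axis. Of the 102 points, 50 (filled) meet the rule, and points below 0 are dimmer than epiblast in at least 1 layer, with equality as the diagonal line.

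Set against gene lists, 49 of the 120 genes were on at least 1 of 33 lists and 71 were on none. Of the 1051 listed genes above the floor 4.66% were members, against 0.939% of all genes above the floor, and the lists were drawn up with results of these arrays known. Among TGF-beta, Nodal and BMP genes, 8 of 50 (16%) were members. In that list 18 genes were at least 2-fold brighter in endoderm than in epiblast and 3 at least 2-fold dimmer, and 16 were brighter in mesoderm and 2 dimmer. Over all genes above the floor on any array, the shares were 12.5% brighter and 4.01% dimmer in endoderm, and 3.44% brighter and 3.25% dimmer in mesoderm. The median log2 difference of the list was 0.42 in endoderm and 0.26 in mesoderm. Counts by list depended on the setting, and under 9 alternatives that of the TGF-beta list ran from 2 (3-fold limit) to 9 (centring on housekeeping genes).

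Of the mesendoderm transcription factors, 5 of 36 (13.9%) were members, namely Gata2, Gata6, Isl1, Lhx1 and Sox7. Their list had the highest median of the 33 for mesoderm, 0.97, beside 1.09 for endoderm. It lists factors of these layers and was drawn up with the arrays known, so its rank follows in part from that choice. In endoderm 19 of its genes were at least 2-fold brighter than in epiblast and 4 dimmer, and in mesoderm 18 and 6. Growth factor receptors and ligands gave 6 of 53 (11.3%), guidance genes 4 of 37 (10.8%), actin, annexin and S100 genes 7 of 68 (10.3%), imprinted genes 3 of 37 (8.11%) and matrix genes 4 of 51 (7.84%). The lists as a whole did not all lie above epiblast. Median log2 differences in endoderm and mesoderm were -0.08 and 0.08 for growth factor genes and -0.16 and 0.09 for guidance genes. They were 0.49 and 0.21 for the actin list, 0.24 and 0.35 for imprinted genes and 0.66 and 0.29 for matrix genes. The 3 imprinted members were Igf2, Cdkn1c and Asb4.

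The share of members over all genes, 0.939%, gives less than 1 gene in lists of this size, so a list with 0 or 1 member is not told apart from the background. Of 38 lysosome and endocytosis genes 26 were at least 2-fold brighter in endoderm and 2 in mesoderm, and Laptm4b was the 1 member. Of 33 epithelial junction genes 14 were brighter in endoderm and 17 dimmer in mesoderm, with Dsp the 1 member. WNT signalling gave 0 of 46, with 8 genes 2-fold brighter in endoderm and 8 in mesoderm, and the WNT carrier Wls, a member, was not on that list. Integrins, cadherins and adhesion genes gave 0 of 37, Notch genes 0 of 21, splicing regulators 0 of 40 and pluripotency genes 0 of 33, the last with 11 genes dimmer than epiblast in endoderm and 18 in mesoderm.

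Promoter sequence was held for 87 of the 120 genes, with 125 start sites between them (RefSeq, build GRCm38.p6), and the 250 bases before each start were read. The median number of CG pairs in a window was 14 for the 120 genes, 12 for all genes with an intensity and 6 for all 32851 promoters of the table. Windows with 10 or more CG pairs made up 63.2%, 57.4% and 37.8%. Windows of 5 genes are shown (1 of 4 starts for Igf2 and 1 of 2 for Asb4), chosen after their values were seen, with 5 CG pairs for Stard8, 10 for Igf2, 4 for Asb4, 2 for Cfc1 and 26 for Lhx1. Capitals mark a match, on either strand, to a searched motif.
Stard8, chrX:99042331-99042580, plus strand: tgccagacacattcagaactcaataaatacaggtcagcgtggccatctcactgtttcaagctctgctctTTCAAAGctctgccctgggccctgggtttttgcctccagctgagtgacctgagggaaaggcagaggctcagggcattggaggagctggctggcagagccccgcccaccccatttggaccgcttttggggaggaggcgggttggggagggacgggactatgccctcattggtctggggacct
Igf2, chr7:142661272-142661521, minus strand: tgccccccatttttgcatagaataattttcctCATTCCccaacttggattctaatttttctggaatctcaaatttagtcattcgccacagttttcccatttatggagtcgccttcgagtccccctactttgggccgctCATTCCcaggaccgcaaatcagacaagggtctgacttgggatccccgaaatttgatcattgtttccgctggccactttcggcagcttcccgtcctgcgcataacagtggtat
Asb4, chr6:5383136-5383385, plus strand: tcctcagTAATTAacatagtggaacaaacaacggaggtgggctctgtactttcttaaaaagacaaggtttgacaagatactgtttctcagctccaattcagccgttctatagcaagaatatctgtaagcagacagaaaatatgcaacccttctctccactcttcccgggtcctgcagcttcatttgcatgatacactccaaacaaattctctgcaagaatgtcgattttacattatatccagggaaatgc
Cfc1, chr1:34535398-34535647, plus strand: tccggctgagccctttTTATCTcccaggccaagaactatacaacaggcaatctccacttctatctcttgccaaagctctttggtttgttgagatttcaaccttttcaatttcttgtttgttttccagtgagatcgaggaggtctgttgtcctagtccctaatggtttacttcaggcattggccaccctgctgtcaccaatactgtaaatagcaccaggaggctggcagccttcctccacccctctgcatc
Lhx1, chr11:84525535-84525784, minus strand: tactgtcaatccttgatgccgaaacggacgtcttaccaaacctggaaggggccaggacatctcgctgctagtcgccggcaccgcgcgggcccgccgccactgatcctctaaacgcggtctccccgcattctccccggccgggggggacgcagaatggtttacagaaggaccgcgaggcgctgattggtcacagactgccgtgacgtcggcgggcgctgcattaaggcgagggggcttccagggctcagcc

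The window of Stard8 held a LEF/TCF match, that of Igf2 held 2 TEAD matches, that of Asb4 a LIM homeobox match and that of Cfc1 a GATA match. The Igf2 windows not shown held fewer matches or none, and the other Asb4 window held none. The Lhx1 window held no match. The motifs were searched as written here on both strands. The letters AGATAA, the GATA motif, were in 4.0% of the windows of the 120 genes and in 9.99% of all windows. All windows here are those of the 32851 promoters, with a median GC content of 52.4% against 60.8% for the 120 genes. The shares were not adjusted for base content, so a lower share of a motif is not read as depletion. The shares were 1.6% and 3.17% for Forkhead (TGTTTAC), 3.2% and 3.33% for T-box (GGTGTGA), 2.4% and 3.02% for SOX (ACAATGG) and 2.4% and 4.84% for LIM homeobox (TAATTA). They were 12.0% and 12.6% for TEAD (GGAATG), 2.4% and 4.46% for LEF/TCF (CTTTGAA) and 6.4% and 4.46% for AP-1 (TGAGTCA). A match is a description of the letters and not a bound site.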

How the data were processed

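RNA of dissected endoderm, mesoderm and epiblast was hybridised to 1 Affymetrix Mouse Genome 430 2.0 array per layer from 100 ng of total RNA. The authors read the arrays with AGCC, corrected and normalised them by RMA and computed values with the affy package. The deposited intensity values are on a linear scale and reach 15688, so log2 was taken here. Medians were 79.9 in endoderm, 79.9 in mesoderm and 82.2 in epiblast. Of 45037 probe sets, 34945 had 1 gene symbol, 932 had several and 9160 had none, and only the first were used. Each gene was represented by its probe set of highest mean log2. Values below the floor (80.6) are bounds.

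The members and gene lists were chosen with earlier results of these data known, and the role groups, families and printed promoters after values were seen. Named genes were the 25 members with the largest excess, the 10 brightest in epiblast, up to 8 per list, 5 on each side of the limit, up to 6 with a probe set of opposite direction and the 10 leading epiblast-high genes. Others named were chosen after their values were seen. The rule was tested on simulated data. With 1 array per layer no test was possible, and the SAM analysis named in the methods needs replicates. Normalization alternatives used limma 3.58.1 in R 4.3.3, and the rest Python 3.11.15 with pandas 2.3.3.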

Additional observations from a re-analysis of the deposited data

How the results depend on the processing

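The rule gave 120 genes, and 17 of them met it under the main setting and all 9 alternatives (Akap2, Cdkn1c, Cfc1, Dusp9, Hsd11b2, Igfbp4, Irx1, Lama1, Lhfpl2, Lhx1, Myc, P3h2, Pkdcc, Polg, Prdm6, Sox7 and Stard8). Some of the 17, such as Cdkn1c, Cfc1, Lama1 and Myc, have 1 probe set, so choosing or averaging probe sets could not remove them. With a 3-fold limit 43 genes remained, all from the 120, and the other classes fell to 442 endoderm-high, 38 endoderm-low, 58 mesoderm-high, 58 mesoderm-low and 40 epiblast-high genes. With endoderm and mesoderm less than 1.5-fold apart 79 of the 120 remained. With the floor at the 75th percentile (286) 88 remained, and mesoderm-high, mesoderm-low and epiblast-high genes numbered 79, 66 and 51. Raising dim values to the floor kept 102. The mean over all probe sets of a gene gave 88 genes, 77 of them from the 120. Quantile normalization gave 114, 94 of them from the 120, and moved the median log2 difference of all genes above the floor between endoderm and epiblast from 0.05 to -0.11. Cyclic loess gave 114 with 108 shared, centring on housekeeping genes 140 with all 120, and choosing probe sets by linear intensity 122 with all 120. Alternatives of the fold limit, the gap and the floor change only the calls. Under the other 6, 342 of 372 recomputed differences of 62 named genes stayed within 0.40 on the log2 scale, 30 moved further and 0 changed sign. Some of the 372 could not move. A gene with 1 probe set keeps its value however probe sets are chosen or averaged. Raising dim values alters nothing where all 3 layers are above the floor. Even so, 26 of the 62 genes fell under the 2-fold limit in at least 1 of these 6 settings. Averaging all probe sets, also those below the floor, took 19 under that limit. As log2 differences in the dimmer layer, these included Gata2 (0.73), Sema6d (0.45), Epas1 (0.96), Vegfa (0.58), Adam10 (0.39) and Msx1 (0.59). Bmpr2 (0.37), Fgfr3 (0.47), Abca1 (0.59), Lifr (0.81) and Fn1 (0.89) were also among the 19. Quantile normalization took 13, among them Isl1 (0.81), Msx2 (0.76), Macroh2a1 (0.73), Fn1 (0.98) and Bmp7 (0.92), cyclic loess took 7, and raising dim values to the floor took Rarb, Tgfb2 and Tgfbi. Of 189 counts of members by list, 51 moved by more than 1.5 times. No paired analysis was possible because each layer has 1 array, and for the same reason no replicate could be left out.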

Other observations

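Genes that were bright in both endoderm and mesoderm but 2-fold or more apart lay just outside the rule. There were 84 of them above the floor in both layers, 67 brighter in endoderm and 17 in mesoderm. Cer1, a secreted antagonist of Nodal and BMP, read 4344 in endoderm, 1606 in mesoderm and 50.4 in epiblast, at least 53.9-fold and at least 19.9-fold above epiblast. Tfpi, an inhibitor of coagulation, read 3266, 1002 and 117, and the simple epithelial keratins Krt8 and Krt18 read 9001, 4001 and 1136, and 8193, 2740 and 1086. Gpc3, a glypican, read 6026, 2714 and 1061, and Amot, a regulator of cell junctions and YAP, read 8375, 3611 and 1502. On the mesoderm side, Cxcr4, the chemokine receptor, read 495, 1138 and 83.5, and Twist1, a factor of mesenchymal cells, read 413, 1528 and 117. These genes were named after their values were seen.

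The mirror class, high in epiblast alone, was led by Sox2, which pluripotent and neural cells need, at 72.3 in endoderm, 130 in mesoderm and 3032 in epiblast. Sox3 read 48.5, 36.6 and 856, and Cxcl12, the ligand of Cxcr4, read 58.0, 82.3 and 718. Myb, Slc7a3, Dtx3l, Prune2, Cacng8, Bmerb1 and Ldb2 followed. Ldb2, a cofactor of LIM homeobox factors, read 107, 151 and 636, while Lhx1 and Isl1 were low in epiblast.

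Probe sets that did not stand for their gene met the rule in 26 genes outside the set. For Bmi1, a Polycomb protein, such a probe set read 462, 456 and 178, and the one that stood for the gene read 1214, 991 and 532. For Il10rb these were 282, 206 and 48.1, and 153, 189 and 186. Among the 10092 probe sets without a single symbol, 2966 were above the floor and 8 met the rule.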
